A study of Mus musculus with 22 samples.

Results

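The genes described here are *Cd109*, *Map1b*, *Stxbp6*, *Chst15*, *Gfra3*, *Zbed5* and *Drd1*. They were chosen on these data, as 7 of 55487 annotated genes whose counts separated CPEB2-KO from CPEB2-WT brown adipose tissue (BAT) in mice that had received a virus. Their values in that cohort are therefore a description, and the untreated mice, which the choice did not use, are where the difference could be tested.

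RNA of BAT was sequenced from 22 mice labelled male, 1 library per mouse, and the genes were followed across 6 groups. The untreated cohort held 5 CPEB2-WT and 5 CPEB2-KO mice aged 21 to 25 weeks that received no virus. The paper states that food was withheld from these mice for 5 to 6 h before BAT was taken. It describes no such step for the AAV cohort. In the AAV cohort, 16-week-old mice received 2e+10 vector genomes of adeno-associated virus (AAV) in 30 μl, spread over interscapular BAT in sites of 10 μl, and the tissue was taken 9 weeks later. Each virus was given to 3 WT and 3 KO mice, and the groups are named by genotype and virus, for example WT + AAV-GFP. AAV-GFP is the control virus, and AAV-PRDM16 carries *Prdm16*, a transcriptional coregulator of brown adipocyte identity. All KO groups shared a deletion of *Cpeb2* in the whole body, not in fat cells alone, and since many KO pups die soon after birth, the mice sampled were survivors. All mice were kept on a chow diet of 9% fat. Bulk tissue was measured, so fewer cells of a type and less RNA per cell cannot be told apart.

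CPEB2 belongs to the cytoplasmic polyadenylation element binding proteins, which attach to a short U-rich element (CPE) in the 3′ untranslated region (3′UTR) of an mRNA and control its poly(A) tail and its translation. A transcript whose translation CPEB2 controls need not change in level, and a transcript can change in level without being bound. The 7 genes have no common pathway. *Cd109* encodes a membrane-anchored coreceptor that dampens TGF-β signalling, *Map1b* a microtubule-associated protein best known from growing neurons, *Stxbp6* (amisyn) a binding protein of the SNARE complex in vesicle fusion, and *Chst15* a sulfotransferase that adds a further sulfate to chondroitin sulfate chains. *Gfra3* encodes the coreceptor through which artemin reaches the RET kinase, *Zbed5* a BED zinc finger protein of transposase origin, and *Drd1* a dopamine receptor that raises cAMP.

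The CPE letters TTTTAT and TTTTAAT were counted on the mRNA strand of the annotated 3′UTR, because CPEB2 itself was deleted. Overlapping matches were each counted. Of the 7 genes, 5 held at least 1 match, beside 53.4% of 20675 protein-coding genes. *Map1b* held 10 in 4360 bases, where genes with a 3′UTR within 20% of that length had a median of 5. *Chst15* held 2 in 2494 bases (median of genes of like length, 3), and *Stxbp6* held 1 in 3370 bases (median 4). One match was found in the 1667 bases of *Drd1*, where 77.7% of genes of like length held one, and 1 in the 141 bases of *Zbed5*, where 13.4% did. *Cd109*, with 1195 bases, and *Gfra3*, with 636, held none, although 66.3% and 47.0% of genes of like length did. The match nearest the 3′ end of each of the 5 transcripts is shown with its surroundings in GRCm38, the CPE letters in capitals and the mRNA strand read 5′ to 3′.
Map1b, chr13:99421567-99421596, minus strand: aatatgtagtgcTTTTATgatatttgtgtg
Stxbp6, chr12:44852735-44852764, minus strand: tagtgaaatctgTTTTATactattgtgact
Chst15, chr7:132236142-132236171, minus strand: ttgctgatctttTTTTATacgtgcagcccc
Zbed5, chr5:129903483-129903508, plus strand: ggttggctTTTTATgaacagtatccc
Drd1, chr13:54052378-54052407, minus strand: tgttgataatggTTTTATttatttatttat
All 5 lie in a 3′UTR, and their distances to the end of the transcript were 133 bases in *Map1b*, 263 in *Stxbp6*, 374 in *Chst15*, 127 in *Zbed5* and 1204 in *Drd1*. A match of these letters is a description and not a shown binding site. *Cd109* and *Gfra3*, both without a match, were on opposite sides in the AAV cohort, the former higher and the latter lower in KO.

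Some untreated libraries went against their labels, which bears on the test below. In the AAV cohort, *Cpeb2* was at 10.5 to 13.96 CPM (counts scaled to library size by TMM) in the 6 WT libraries and at 4.33 to 5.55 CPM in the 6 KO libraries. In the untreated cohort it was at 7.69 to 14.3 CPM in WT, and at 2.10 to 5.78 CPM in 4 KO libraries, but at 11.7 CPM in KO mouse 1, which is within the WT range. The sum of 4 Y-linked transcripts (*Uty*, *Kdm5d*, *Eif2s3y*, *Ddx3y*) exceeded 10 CPM in all 12 AAV libraries, but in only 3 of 5 untreated WT and 1 of 5 untreated KO libraries. The other 6, WT mice 3 and 5 and KO mice 1, 3, 4 and 5, had at least 104 CPM of *Xist* although all mice are labelled male. Library totals ran from 55320927 to 162721202 counts. *Prdm16* was at 23.9 to 40.2 CPM under AAV-GFP and 45.8 to 128 CPM under AAV-PRDM16. The brown fat marker *Ucp1* was at 1184 CPM or more in every library.

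The levels of the 7 genes differed widely. Per kilobase of exon, the mean in WT + AAV-GFP was 8.43 RPKM (CPM per kilobase of exon) for *Chst15*, 2.199 for *Zbed5*, 0.630 for *Stxbp6*, 0.599 for *Gfra3*, 0.358 for *Map1b*, 0.0353 for *Cd109* and 0.00641 for *Drd1*. *Stxbp6* and *Gfra3*, neighbours in this order, overlapped between libraries. In KO + AAV-GFP the order was *Chst15* (11.3 RPKM), *Zbed5* (1.25), *Map1b* (0.767), *Stxbp6* (0.749), *Gfra3* (0.209), *Cd109* (0.160) and *Drd1* (0.0400), with *Map1b* and *Stxbp6* overlapping. The mean count of *Drd1* over the AAV libraries was at the 2.29th percentile of the genes tested, that of *Cd109* at the 30.1th and that of *Chst15* at the 91.0th. By the size of the log2 fold change between KO and WT, averaged over both viruses, the 7 ranked from 28 (*Drd1*) to 1932 (*Map1b*) of 18899 genes tested, so they were not the 7 most changed by fold.

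In the AAV cohort, 5 of the genes were higher in KO than in WT (*Cd109*, *Map1b*, *Stxbp6*, *Chst15* and *Drd1*) and 2 were lower (*Gfra3* and *Zbed5*), under either virus. Under AAV-GFP the 3 KO and 3 WT libraries did not overlap for 5 of 7 genes, beside 13.4% of all genes tested, and *Stxbp6* and *Chst15* overlapped. Under AAV-PRDM16 they did not overlap for 7 of 7, beside 22.8% of all genes. Taking 6 KO against 6 WT libraries across both viruses, 5 of 7 did not overlap, beside 2.71%. The genes were chosen on these contrasts, so nothing is read from the counts. At an FDR of 0.05, 0.0529% of all genes were called under AAV-GFP and 0.0476% under AAV-PRDM16, counts of 10 and 9 that ran from 0 to 238 and from 0 to 626 over the alternatives.

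**Figure D1:**
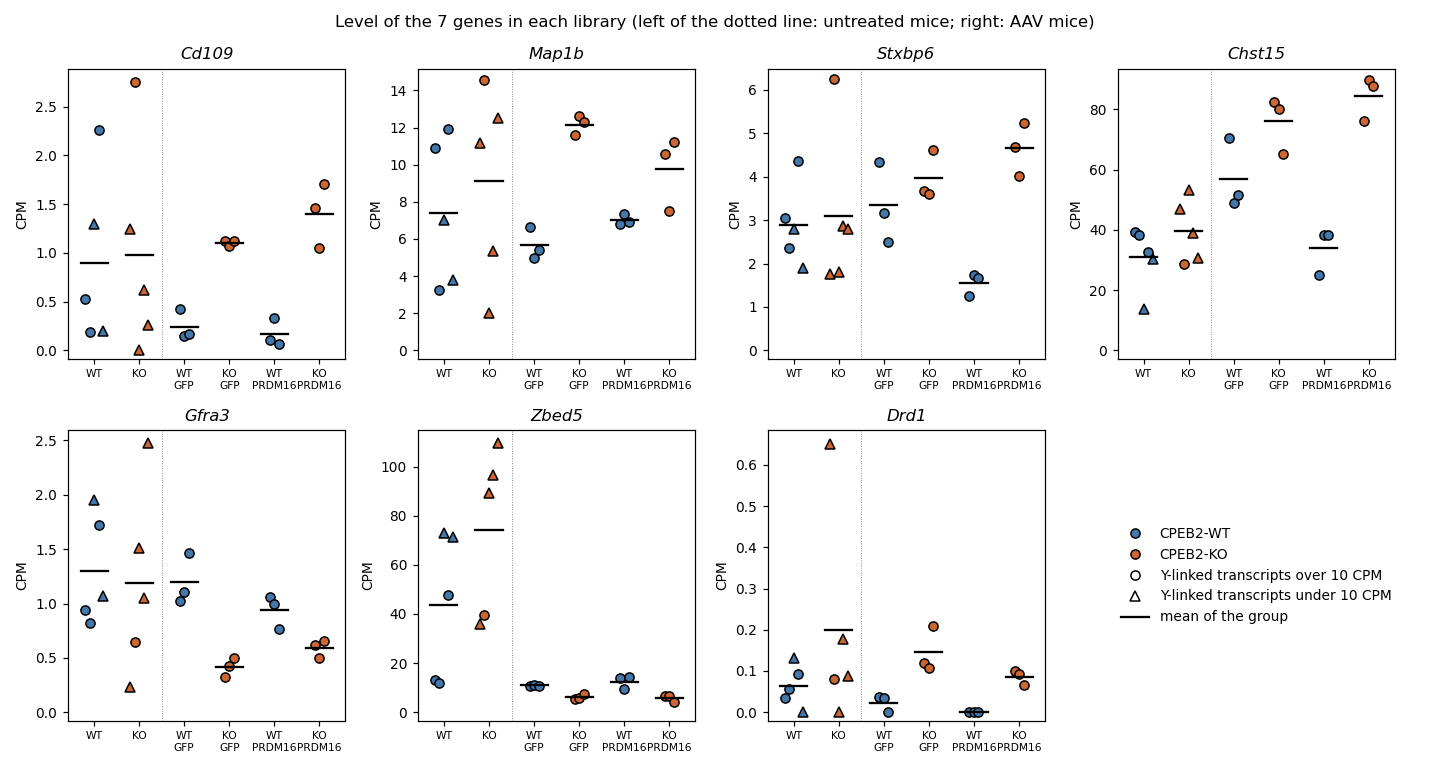
Level of each gene in CPM (vertical axes, linear) in the 22 libraries, by group (horizontal axes). Points are mice, blue for WT and orange for KO, triangles mark libraries with Y-linked transcripts under 10 CPM, and bars are group means. In the AAV cohort, right of the dotted line, KO and WT points of *Map1b* run from 7.52 to 12.6 and from 4.97 to 7.37 CPM, whereas the untreated groups overlap for all 7 genes.

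*Cd109* (ENSMUSG00000046186, chr9:78615546-78716253 of GRCm38, plus strand) showed the widest gap of the genes with reads in every AAV library. Its level under AAV-GFP was 0.421, 0.142 and 0.167 CPM in WT mice 1 to 3 and 1.12, 1.07 and 1.12 CPM in KO mice 1 to 3. Under AAV-PRDM16 it was 0.105, 0.332 and 0.0674 CPM in WT and 1.46, 1.05 and 1.70 CPM in KO. Every KO library was thus above every WT library, and the 3 KO + AAV-GFP libraries lay within 1.05-fold of each other while the WT libraries spread 2.96-fold. The log2 fold change of KO over WT was 2.18 ± 0.55 (SE) under AAV-GFP and 3.05 ± 0.58 under AAV-PRDM16. The counts behind the WT values were low, 7 to 47 per library, and leaving out single libraries moved the fold change from 1.91 to 2.82 under AAV-GFP and from 2.67 to 4.01 under AAV-PRDM16. An antisense gene annotated within *Cd109* had no reads in any library.

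*Map1b* (ENSMUSG00000052727, chr13:99421446-99516540, minus strand) was also higher in KO. Under AAV-GFP, WT mice had 6.65, 4.97 and 5.42 CPM and KO mice 11.6, 12.6 and 12.3 CPM, a log2 fold change of 1.10 ± 0.16 (SE). Under AAV-PRDM16, WT mice had 6.80, 7.37 and 6.91 CPM and KO mice 10.6, 7.52 and 11.2 CPM, a log2 fold change of 0.47 ± 0.16. The groups were far apart under AAV-GFP. Under AAV-PRDM16 the separation was narrow, with the lowest KO library at 7.52 CPM and the highest WT library at 7.37 CPM. A provisional transcript inside the gene had at most 0.0623 CPM.

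*Stxbp6* (ENSMUSG00000046314, chr12:44852484-45074709, minus strand) and *Chst15* (ENSMUSG00000030930, chr7:132235780-132317228, minus strand) had larger differences between genotypes under AAV-PRDM16, a contrast that was not tested. *Stxbp6* was at 1.26, 1.74 and 1.67 CPM in WT + AAV-PRDM16 and at 4.69, 4.02 and 5.24 CPM in KO + AAV-PRDM16 (log2 fold change 1.58 ± 0.23 SE). Under AAV-GFP the WT libraries had 4.35, 3.17 and 2.50 CPM and the KO libraries 3.68, 3.61 and 4.61 CPM (0.25 ± 0.22). The KO libraries of both viruses overlapped, within 3.61 to 5.24 CPM, whereas the WT libraries of AAV-PRDM16 were all below those of AAV-GFP. *Chst15* showed the same layout, with 25.1, 38.3 and 38.2 CPM in WT + AAV-PRDM16 against 76.1, 89.7 and 87.7 CPM in KO + AAV-PRDM16 (1.32 ± 0.18). Under AAV-GFP, it was at 70.3, 48.8 and 51.6 CPM in WT and 82.6, 80.2 and 65.3 CPM in KO (0.42 ± 0.18), overlapping through WT mouse 1 and KO mouse 3. Part of *Chst15* is also covered by an annotated transcript of *Fgfr2* on the same strand, which had 3.46 to 8.49 CPM in the AAV libraries, and by an antisense gene, *Gm10584*, at 0.246 to 1.10 CPM.

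*Gfra3* (ENSMUSG00000024366, chr18:34689898-34720387, minus strand) was lower in KO. Its level under AAV-GFP was 1.02, 1.10 and 1.46 CPM in WT and 0.328, 0.422 and 0.49998 CPM in KO, a log2 fold change of -1.51 ± 0.29 (SE). Under AAV-PRDM16 it was 1.06, 0.995 and 0.761 CPM in WT and 0.614, 0.4995 and 0.651 CPM in KO (-0.68 ± 0.29). No KO library reached a WT library in either arm. The lowest count was 22 in a library.

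*Zbed5* (ENSMUSG00000034173, chr5:129895723-129903623, plus strand) lies on the chromosome of *Cpeb2*, 86605999 bases away. Under AAV-GFP it was at 10.9, 11.3 and 10.7 CPM in WT and at 5.44, 5.65 and 7.50 CPM in KO, a log2 fold change of -0.82 ± 0.21 (SE). Under AAV-PRDM16 it was at 13.97, 9.30 and 14.2 CPM in WT and at 6.56, 6.77 and 4.09 CPM in KO (-1.10 ± 0.21). The 6 WT libraries were all above the 6 KO libraries. *Phkg1*, a phosphorylase kinase subunit gene, overlaps *Zbed5* on the other strand, and without a stated strand setting the reads of the pair cannot be told apart. *Phkg1* itself was counted at 0.187 to 1.79 CPM in the AAV libraries.

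*Drd1* (ENSMUSG00000021478, chr13:54051183-54055705, minus strand) rested on few reads. Counts under AAV-GFP were 4, 5 and 0 in WT and 8, 12 and 30 in KO, and under AAV-PRDM16 they were 0, 0 and 0 in WT and 10, 10 and 4 in KO. Summed over the group and scaled to CPM, KO + AAV-GFP was 6.72-fold above WT + AAV-GFP, from 50 against 9 reads. KO + AAV-PRDM16, with 24 reads, was at least 8.32-fold higher than WT + AAV-PRDM16, taking 3 counts over the group as the floor. The WT + AAV-PRDM16 libraries allow up to 0.0107 CPM, a limit that covers counting error only. *Drd1* passed the filter on low counts in the AAV cohort only through KO libraries, mainly those of KO + AAV-GFP, and did not pass it in the untreated cohort.

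In the untreated cohort none of the genes separated the genotypes. The 5 KO and 5 WT libraries overlapped for all 7, where 1.4% of the 17869 genes tested did not overlap. By edgeR's quasi-likelihood test with Benjamini-Hochberg adjustment, 0 of the 6 genes that passed the filter were called at an FDR of 0.05, and 0 had an unadjusted p under 0.05. Over all genes, 0% were called and 15.9% had an unadjusted p under 0.05. The smallest adjusted p of any gene was 0.305, so the targeted gene was not called either (*Cpeb2*, log2 fold change -0.99 ± 0.41 SE, adjusted p = 0.305). RLE scaling and limma-voom with sample quality weights also called none of the 6, and DESeq2 called none of the 4 for which it gave an adjusted p (it gave none for *Cd109* and *Gfra3*).

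Untreated *Cd109* was at 0.525, 0.186, 1.29, 2.26 and 0.201 CPM in WT mice 1 to 5 and at 1.24, 2.75, 0, 0.615 and 0.263 CPM in KO mice 1 to 5. KO mouse 3 had no read of it, which allows up to 0.0346 CPM. The highest library of either group was 2.26 CPM or more, above every AAV library, although levels were scaled within each table separately. Its log2 fold change was 0.13 ± 1.05 (SE), with an edgeR adjusted p of 0.953 and an exact two-sided permutation p of 0.778, where the smallest possible p is 0.00794. The highest WT library was 12.1-fold above the lowest, and the direction was not stable: the mean difference in log2 CPM was -0.51, and the fold change turned to -0.49 in the libraries without Y-linked transcripts.

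*Map1b* was at 10.9, 3.27, 7.002, 11.9 and 3.77 CPM in untreated WT and at 11.2, 14.5, 2.00, 5.36 and 12.5 CPM in untreated KO, with a log2 fold change of 0.31 ± 0.51 (SE) and an edgeR adjusted p of 0.747. *Stxbp6* was at 3.04, 2.37, 2.80, 4.36 and 1.91 CPM in WT and at 1.76, 6.24, 1.80, 2.86 and 2.79 CPM in KO (0.09 ± 0.40, adjusted p = 0.907 by edgeR). *Chst15* was at 39.1, 38.3, 13.7, 32.8 and 30.2 CPM in WT and at 46.8, 28.5, 53.2, 38.9 and 30.5 CPM in KO (0.36 ± 0.30, adjusted p = 0.5 by edgeR). The fold changes were positive as in the AAV cohort, but those of *Map1b* and *Stxbp6* turned negative with limma-voom, at -0.25 and -0.14. The libraries were interleaved, and the exact permutation p values were 0.762, 0.968 and 0.254. For *Map1b* the low libraries were WT mice 2 and 5 and KO mouse 3, and for *Stxbp6* KO mouse 2 alone stood high.

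*Gfra3* was at 0.937, 0.819, 1.95, 1.72 and 1.07 CPM in untreated WT and at 0.233, 0.650, 1.51, 1.05 and 2.48 CPM in untreated KO. The lowest library was KO mouse 1, whose *Cpeb2* was at the WT level, and the highest was KO mouse 5. The log2 fold change was -0.13 ± 0.55 (SE; edgeR adjusted p = 0.904, exact permutation p = 0.532), and without KO mouse 1 its sign turned, to 0.13 ± 0.47. *Drd1* had 4, 9, 9, 12 and 0 reads in untreated WT and 67, 8, 0, 9 and 7 in untreated KO, so most of the KO reads came from KO mouse 1. Its exact permutation p was 0.397.

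*Zbed5* went the other way in untreated mice. It was at 13.02, 12.0, 73.1, 47.8 and 71.5 CPM in WT and at 35.8, 39.8, 89.4, 96.6 and 109 CPM in KO, with a log2 fold change of 0.77 ± 0.53 (SE), an edgeR adjusted p of 0.434 and an exact permutation p of 0.175. WT mice 1 and 2 stood apart, near the 4.09 to 14.2 CPM of the AAV libraries, and the other 8 untreated libraries were at 35.8 CPM or more. Without WT mice 1 and 2 the log2 fold change was 0.27 ± 0.42, and in the 6 libraries without Y-linked transcripts alone it was 0.23 ± 0.46. The overlapping *Phkg1* was also counted higher in this cohort, at 0.506 to 12.5 CPM. Whether the effect on *Zbed5* differed between the cohorts was not tested, since the gene was chosen on its difference in the AAV cohort. The CPM levels of the cohorts were scaled separately.

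**Figure D2:**
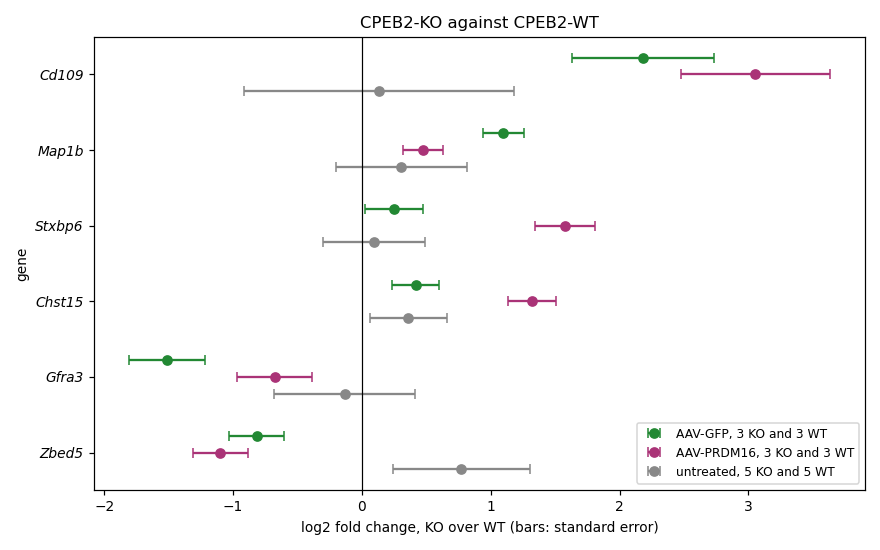
Log2 fold change of KO over WT (horizontal axis) for 6 genes (vertical axis), with the standard error as bars, under AAV-GFP (green), under AAV-PRDM16 (purple) and in untreated mice (grey). *Drd1* is left out because its libraries were at 0 in one group. The untreated values of *Cd109* and *Gfra3* are near 0, at 0.13 and -0.13, and that of *Zbed5* is 0.77, on the other side of 0 from its AAV values.

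The virus comparison averages AAV-PRDM16 against AAV-GFP over both genotypes. With groups of equal size and equal spread, its fold change would be uncorrelated with the KO against WT contrasts, so it was tested. The spreads were not all equal. For *Cd109* the SD of log2 CPM was 0.78 in WT + AAV-GFP and 0.040 in KO + AAV-GFP. The estimate of spread also came from the same libraries as the choice. Neither the fold changes nor the edgeR p values are therefore free of the choice. *Drd1* is left out, because it would not have passed the filter on low counts without KO + AAV-GFP, an arm of this comparison. By edgeR's quasi-likelihood test, 0 of the other 6 genes were called at an FDR of 0.05, beside 0.037% of 18899 genes, and no alternative scaling, filter, tool or left-out library called any of them at that FDR. At an unadjusted p under 0.05 there were 2 of 6, *Stxbp6* and *Chst15*, both lower under AAV-PRDM16, beside 9.09% of all genes. *Stxbp6* had a log2 fold change of -0.44 ± 0.16 (SE; adjusted p = 0.34 by edgeR) and *Chst15* of -0.30 ± 0.13 (adjusted p = 0.481 by edgeR). Exact permutation within each genotype gave p values of 0.145 for *Stxbp6* and 0.19 for *Chst15*, where the smallest possible is 0.005. The other genes had log2 fold changes of -0.09 ± 0.38 (*Cd109*), -0.01 ± 0.11 (*Map1b*), 0.07 ± 0.20 (*Gfra3*) and 0.05 ± 0.15 (*Zbed5*), with edgeR adjusted p values from 0.985 to 0.998. Immune markers moved in the same comparison: all 7 T cell markers and all 5 macrophage markers were lower under AAV-PRDM16 at an unadjusted p under 0.05, with median log2 fold changes of -3.06 and -0.88, and 0 were called by edgeR. Their part in the values of *Stxbp6* and *Chst15* was not tested.

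Within each genotype the virus values are a description, because they are correlated with the contrasts used in the choice. In WT, AAV-PRDM16 libraries lay below all AAV-GFP libraries for *Stxbp6* (log2 fold change -1.10 ± 0.23 SE) and *Chst15* (-0.75 ± 0.18) and above them for *Map1b* (0.31 ± 0.16). In KO, *Map1b* lay below (-0.32 ± 0.16), while *Stxbp6* (0.23 ± 0.22) and *Chst15* (0.15 ± 0.18) overlapped. *Drd1* also lay below in KO, at 0.0668 to 0.0991 CPM under AAV-PRDM16 against 0.108 to 0.208 CPM under AAV-GFP, from 24 and 50 reads. The *Map1b* levels of the genotypes were thus closer under AAV-PRDM16, and those of *Stxbp6* and *Chst15* farther apart. For *Gfra3*, WT was -0.35 ± 0.28 and KO 0.49 ± 0.29, and the libraries of the viruses overlapped in both genotypes. Its group means in WT and KO were closer under AAV-PRDM16. *Zbed5* and *Cd109* overlapped between viruses in both genotypes.

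**Figure D3:**
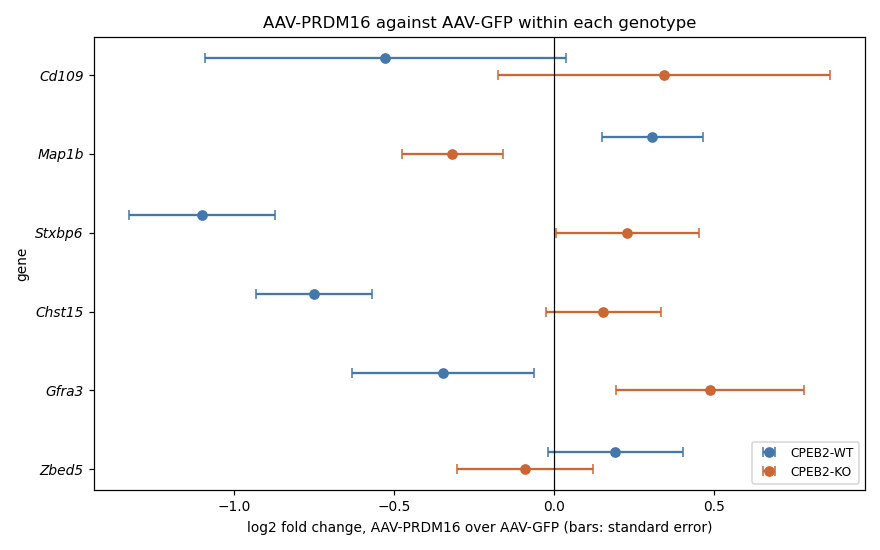
Log2 fold change of AAV-PRDM16 over AAV-GFP (horizontal axis) for 6 genes (vertical axis) in WT (blue) and KO (orange), with the standard error as bars. *Stxbp6* is at -1.10 in WT and 0.23 in KO, and *Map1b* at 0.31 in WT and -0.32 in KO.

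The genes of each member's pathway or family were examined by the same tests. Of the TGF-β list (ligands, latency proteins, receptors, SMADs, inhibitors and targets), 27 genes other than *Cd109* were tested, and 0 were called at an FDR of 0.05 by edgeR in the untreated, AAV-GFP, AAV-PRDM16 or virus comparison. At an unadjusted p under 0.05 there were 4, 5, 4 and 2. Over all genes the shares at that p were 15.9% in untreated mice, 9.18% under AAV-GFP, 13.7% under AAV-PRDM16 and 9.09% between viruses, and the counts of the lists below are to be read against them in the same order. Their median log2 fold change of KO over WT was 0.36 in untreated mice, 0.12 under AAV-GFP and 0.07 under AAV-PRDM16, beside medians over all genes of 0.04, 0.01 and 0.01. The most abundant were *Ltbp3*, *Ltbp2* and *Ltbp4*, which hold TGF-β latent in the matrix, and *Tgfbr2*, its type II receptor. *Tgfbr2* was at 138 CPM in KO and 97.7 CPM in WT under AAV-PRDM16 (log2 fold change 0.50 ± 0.24 SE, edgeR adjusted p = 0.398) and at 138 and 135 CPM under AAV-GFP.

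Of 22 other microtubule genes tested, 0 were called by edgeR in any of these comparisons, with 6, 5, 5 and 1 at an unadjusted p under 0.05. Their median log2 fold change was 0.74 in untreated KO over WT, with 21 of 22 positive, 0.32 under AAV-GFP and 0.30 under AAV-PRDM16, with 16 of 22 positive in each. The most abundant were the autophagy proteins of the *Map1* family, *Map1lc3b* and *Map1lc3a*, and the tubulins *Tubb4b* and *Tuba1b*. In untreated mice *Tubb4b* was at 146 CPM in KO and 86.6 CPM in WT (0.75 ± 0.26 SE, edgeR adjusted p = 0.305). Under AAV-GFP it was at 70.9 and 65.7 CPM, and under AAV-PRDM16 at 58.4 and 69.3 CPM.

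For *Stxbp6*, 0 of 26 other SNARE genes were called by edgeR in untreated mice and 0 of 24 in the AAV comparisons, with 2, 1, 4 and 1 at an unadjusted p under 0.05. Their median log2 fold changes of KO over WT were 0.00, 0.10 and 0.10. Of the most abundant, *Napa*, which recycles SNARE complexes, was at 83.6 CPM in KO and 91.9 CPM in WT under AAV-GFP, and the vesicle SNAREs *Vamp2* and *Vamp3* and the syntaxin *Stx12* were within 0.17 of 0 on the log2 scale there. The chondroitin sulfate list had 25 genes other than *Chst15*, of which 0 were called by edgeR in any comparison, with 2, 7, 7 and 1 at an unadjusted p under 0.05. Its median was 0.08 in untreated mice, 0.28 under AAV-GFP and 0.09 under AAV-PRDM16. The core protein *Bgn* was at 53.2 CPM in KO and 28.9 CPM in WT under AAV-GFP (0.88 ± 0.20 SE, adjusted p = 0.182 by edgeR) and at 43.4 and 24.4 CPM under AAV-PRDM16 (0.83 ± 0.20, adjusted p = 0.125). The core proteins *Cspg4* and *Dcn* and the linker kinase *Fam20b* were the other abundant members, at 77.3, 95.4 and 67.9 CPM in KO + AAV-GFP.

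Among the GDNF family, 0 of 6 tested genes other than *Gfra3* were called by edgeR in the AAV cohort and 0 of 7 in untreated mice, with 1 at an unadjusted p under 0.05 in each KO against WT comparison and 0 in the virus comparison. *Artn*, the ligand of *Gfra3*, was at 0.0239 CPM in KO + AAV-GFP and 0.0420 CPM in WT + AAV-GFP, and *Gdnf*, *Pspn* and *Gfral* were at 0 in both. *Ret*, the shared kinase, was at 1.28 and 1.02 CPM. The ligand *Nrtn* was lower in KO under AAV-GFP (1.82 against 3.63 CPM, log2 fold change -0.99 ± 0.22 SE, edgeR adjusted p = 0.182) and had the opposite sign in untreated mice (12.1 against 5.61 CPM, 1.11 ± 0.59, adjusted p = 0.346), as *Zbed5* did. The coreceptors *Gfra4* and *Gfra1* were at 2.84 and 1.02 CPM in KO + AAV-GFP.

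The ZBED relatives *Zbed3*, *Zbed4* and *Gtf2ird2* were not called by edgeR in any comparison, with 0 at an unadjusted p under 0.05 between genotypes and 1 between viruses. *Zbed3* was at 9.37 and 9.99 CPM in KO and WT under AAV-GFP and at 9.84 and 9.76 CPM in untreated KO and WT, next to the wide range of *Zbed5* in the same libraries. Of 7 dopamine genes tested other than *Drd1*, 0 were called by edgeR, with 3, 0, 1 and 0 at an unadjusted p under 0.05. The dopamine-synthesizing *Th* and the transporter *Slc6a3* were at 0 under AAV-GFP in both genotypes. The signalling gene *Gnas* and the monoamine oxidase genes *Maob* and *Maoa* were at 1736, 92.6 and 15.3 CPM in KO + AAV-GFP. Of the CPEB family, *Cpeb2* was called under both viruses (edgeR adjusted p = 0.02 and 0.0108). No gene was called, *Cpeb2* included, under AAV-GFP without KO + AAV-GFP mouse 1 or 2 or when only those groups were fitted, nor under AAV-PRDM16 without WT + AAV-PRDM16 mouse 1 or 2. The paralogs *Cpeb1*, *Cpeb3* and *Cpeb4* were not called by edgeR under either virus, *Cpeb4* being at 61.0 CPM in KO and 44.8 CPM in WT under AAV-GFP (0.45 ± 0.14 SE, adjusted p = 0.346) and at 53.6 and 52.5 CPM under AAV-PRDM16.

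Markers of other cells moved with the genotype in the AAV cohort. All 10 fibroblast and progenitor markers had a positive log2 fold change of KO over WT under both viruses, with medians of 0.60 and 0.67, although 0 were called by edgeR, with 7 and 5 at an unadjusted p under 0.05, beside 9.18% and 13.7% of all genes. Their summed level was 172 to 258 CPM in WT + AAV-GFP, 261 to 371 in KO + AAV-GFP, 147 to 194.5 in WT + AAV-PRDM16 and 248 to 285 in KO + AAV-PRDM16, so the genotypes did not overlap within a virus, although WT + AAV-GFP reached above the lowest KO + AAV-PRDM16 library. The 5 macrophage markers summed to 24.9 to 45.1 CPM in WT and 52.7 to 135 CPM in KO under AAV-GFP, and to 18.2 to 23.1 and 34.2 to 41.5 CPM under AAV-PRDM16. The 6 smooth muscle and pericyte markers summed to 360 to 451 and 490 to 568 CPM under AAV-GFP, and to 328 to 413 and 444 to 582 CPM under AAV-PRDM16. Under AAV-GFP only 4 of these 6 had a positive log2 fold change, with a median of 0.17. By edgeR 1 was at an unadjusted p under 0.05, beside 9.18% of all genes. Under AAV-PRDM16 all 6 were positive, with a median of 0.56, and all 6 were at that p, beside 13.7% of all genes. None of the markers of these 3 lists was at 0 in a group. The sums of these lists were higher in the same KO libraries as *Cd109* and *Map1b*, and under AAV-PRDM16 also *Stxbp6* and *Chst15*. The part of the lists in those differences was not tested. In untreated mice the fibroblast sums overlapped, at 173 to 645 CPM in WT and 236 to 619 CPM in KO, and so did the macrophage sums, at 21.1 to 108 and 29.9 to 146 CPM. The highest fibroblast sums were 404 and 645 CPM in WT mice 3 and 4 and 477 and 619 CPM in KO mice 1 and 2. These were also the untreated libraries with the most *Cd109*, and the link was not tested. The smooth muscle and pericyte sums were mostly lower in KO there, at 421 to 506 CPM in WT and at 203.6 to 353 CPM in 4 KO libraries. KO mouse 2 was at 422 CPM. Of the 6 markers, 2 were lower in every KO than in every WT library, where 1.4% of all genes did not overlap in either direction. However, 4 of the 6 had a positive log2 fold change and the median was 0.19, so the lower sums did not hold for most of the list.

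Of the remaining marker lists, the Schwann cell, endothelial, T cell and B cell sums overlapped between genotypes under either virus. The brown fat, white fat, neuron and skeletal muscle sums overlapped under AAV-GFP or AAV-PRDM16 but not under both. The 9 Schwann cell markers summed to 135 to 142 CPM in WT and 134 to 161 CPM in KO under AAV-GFP. The 12 neuron markers summed to 1.13 to 1.19 and 1.44 to 3.23 CPM there, which did not overlap, with 4 and 2 of the 12 at 0. Under AAV-PRDM16 the neuron markers summed to 1.51 to 2.199 CPM in WT and 1.42 to 2.53 CPM in KO, with 7 and 5 at 0. The 5 endothelial markers summed to 331 to 431 and 321 to 507 CPM under AAV-GFP. The 14 brown fat markers summed to 4093 to 6424 CPM in WT + AAV-GFP and 4369 to 4983 CPM in KO + AAV-GFP, and to 5909 to 7589 and 4329 to 5347 CPM under AAV-PRDM16, where they did not overlap. The 5 white fat markers summed to 27.8 to 44.0 and 85.9 to 142 CPM under AAV-GFP, which did not overlap, and to 11.4 to 60.4 and 51.7 to 253 CPM under AAV-PRDM16. T cell markers were at 0.704 to 26.8 CPM and B cell markers at 0.279 to 3.02 CPM over the AAV libraries. In untreated mice, skeletal muscle markers summed to 16.8 to 3470 CPM in WT and 8.69 to 6889 CPM in KO, and the 4 myogenic progenitor markers to at most 2.93 CPM. Under AAV-GFP the skeletal muscle sums did not overlap, at 1.73 to 2.09 CPM in WT and 2.25, 3.33 and 108 CPM in KO. All 9 tested markers were positive, 7 of them at an unadjusted p under 0.05 by edgeR, beside 9.18% of all genes. The KO level came mostly from KO + AAV-GFP mouse 1, at 108 CPM. Only 1 of the 9 was higher in every KO than in every WT library, where 13.4% of all genes did not overlap in either direction. Under AAV-PRDM16 the sums were at 1.17 to 31.3 CPM in WT, the highest in WT mouse 2, and 1.31 to 3.02 CPM in KO. There 0 of 9 were positive and 0 were at that p, beside 13.7% of all genes.

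Across the 22 libraries, the deviations of log2 CPM from the group mean showed which genes went together. *Cd109* went with *Map1b* (Pearson r = 0.83; 0.84 over the 10 untreated and 0.63 over the 12 AAV libraries), and both with *Stxbp6* (0.66 and 0.62). *Gfra3* went with *Zbed5* (0.63), with 0.68 over the untreated and -0.10 over the AAV libraries. *Chst15* had an r between -0.48 and -0.22 with the 5 other genes compared, but over the AAV libraries its r with *Cd109*, *Map1b* and *Stxbp6* was 0.44, 0.26 and 0.51. These are descriptions of genes measured in the same libraries, so mouse, depth and preparation were common to both genes of a pair. The untreated libraries, with the widest spread, carry most of these correlations.

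By the same measure over 13636 named genes that passed the filter in both cohorts, the gene most like *Zbed5* was *Uqcrq*, a subunit of respiratory complex III (r = 0.96; 0.98 untreated and 0.77 AAV), followed by the RNA polymerase subunit *Polr2l* (0.96). Like *Zbed5*, *Uqcrq* had lower means in KO than in WT under either virus and a higher one in untreated KO, at 233.9 and 158 CPM in WT and KO under AAV-GFP, 256 and 175 CPM under AAV-PRDM16, and 476 and 800 CPM in untreated WT and KO. The genes most like *Chst15* were *Ak3* (r = 0.93) and *Dlat* (0.92), both of mitochondrial enzymes. *Cd109* went with *Evc2* (0.91) and *Ercc6l* (0.90), *Map1b* with *Kalrn* (0.90) and *Nnat* (0.89), *Stxbp6* with *Dchs1* (0.91) and *Ccdc102a* (0.90), and *Gfra3* with *Shkbp1* (0.92) and *Smarcb1* (0.91). Over the AAV libraries alone these were weaker, for example 0.44 for *Cd109* and *Evc2* and -0.00 for *Gfra3* and *Smarcb1*. *Drd1* was left out, having passed in 1 cohort only.

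**Figure D4:**
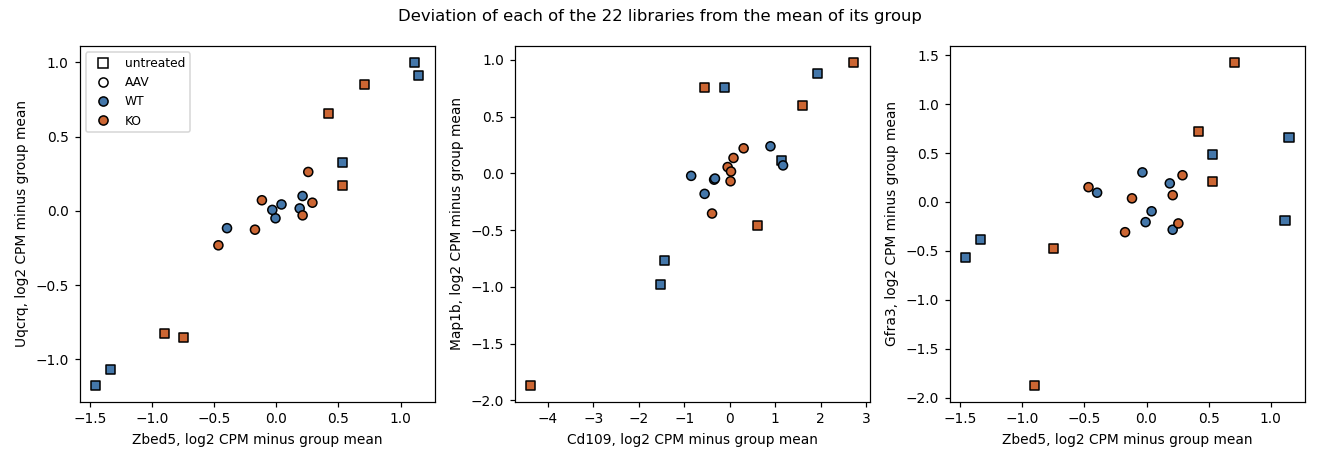
Deviation of log2 CPM from the group mean in the 22 libraries for *Zbed5* and *Uqcrq*, *Cd109* and *Map1b*, and *Zbed5* and *Gfra3* (squares untreated, circles AAV, blue WT, orange KO). Untreated libraries reach the ends of each axis, and the lowest *Cd109* point is untreated KO mouse 3, which had 0 reads. The Pearson r is 0.96, 0.83 and 0.63 from left to right.

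Promoter windows of 250 bases before and 50 after an annotated start were present in the RefSeq table (GRCm38.p6) for 5 of the 7 genes, with separate windows for starts of *Chst15* and of *Drd1*. Their GC content was 54.0% to 66.3%, above the median of 52.7% over 32851 windows. On both strands, GGAATG, a TEAD factor element, was found in both windows of *Chst15* and in 14.7% of all windows, and TATAAA in the window of *Map1b* and in 13.6% of all. TGACG, part of a cAMP response element, was in 1 window of *Chst15* and in 20.8% of all, and CAGAC, a SMAD element, in the windows of *Zbed5*, *Chst15* and 1 of *Drd1* and in 49.6% of all. No motif was shared by all of the genes with a window.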

How the data were processed

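The authors deposited read counts per Ensembl gene as whole numbers, without normalization, in 1 table for each cohort. Libraries were made from mRNA with a commercial kit. The submitters' processing notes name bcl2fastq 2.20, Trimmomatic 0.36, HISAT2 and GRCm38.p6, and the counting tool, the annotation and the handling of strand, molecular identifiers and duplicates are not given in the sources used here. Groups were taken from the sample labels. Each library is a separate mouse.

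Symbols and positions came from GENCODE M21, which matched 55141 of 55487 identifiers, and synonyms and promoters from RefSeq. Counts were scaled by TMM and filtered with filterByExpr in edgeR 4.0.16 (R 4.3.3), leaving 17869 untreated and 18899 AAV genes. They were compared by its two-sided quasi-likelihood test, and p values were adjusted by Benjamini-Hochberg over every gene tested. The AAV fit used all 12 libraries. The SE is the log2 fold change divided by the square root of its F statistic. Log2 CPM for permutation tests and correlations used a prior count of 2. A count of 0 was read as allowing 3 counts. Alternatives used DESeq2 1.42.0 and limma 3.58.1. The fits were tested on simulated counts. No 2 libraries of a group agreed within counting noise (lowest median chi-square of a pair, 5.24).

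The members and the gene lists were chosen with earlier results of these data known. Named were the 7 members, list genes called at an FDR of 0.05 or among the 4 most abundant of a list, the 2 genes most like each member, and *Cpeb2*, *Prdm16* and the sex transcripts. One gene that this rule names is not reported here. Other list genes named for their role (*Artn*, *Gdnf*, *Pspn*, *Gfral*, *Th* and *Slc6a3*) and overlapping genes were added after their values were seen, as were the analyses without WT mice 1 and 2 and KO mouse 1 and of the libraries without Y-linked transcripts.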

Additional observations from a re-analysis of the deposited data

Results flagged for a closer look

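In untreated KO mice, *Drd1* in mouse 1 was at 0.651 CPM and *Stxbp6* in mouse 2 at 6.24 CPM, each farther from the other 4 libraries of its group than Dixon's test allows at the 95% level. Chance marks about 1 in 20 of such groups, and 14 were examined. KO mouse 1 is the library whose *Cpeb2* was within the WT range.

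*Map1b* moved in opposite directions under AAV-PRDM16 in the 2 genotypes. The log2 fold change against AAV-GFP was 0.307 in WT, where every AAV-PRDM16 library was above every AAV-GFP library, and -0.318 in KO, where every one was below. This difference was not tested, because the gene was chosen on contrasts that share these libraries.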

How the results depend on the processing

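In untreated mice, no alternative called any of the 6 genes tested. Of 114 recomputed fold changes, 18 turned in sign. With limma-voom and sample quality weights the log2 fold change was -1.51 for *Cd109*, -0.25 for *Map1b* and -0.14 for *Stxbp6*. With a replicate block it was -0.15 for *Cd109* and -0.032 for *Stxbp6*. *Cd109* was at -0.32 without WT mice 1 and 2, at -0.46 without KO mouse 1 as well, and at -0.49 in the libraries without Y-linked transcripts, where *Stxbp6* was at -0.0068. Leaving out single mice gave -0.74 (without KO mouse 2) to 0.84 (without WT mouse 4) for *Cd109*, -0.30 to 0.29 for *Stxbp6* (the same mice), and -0.60 (without KO mouse 5) to 0.13 (without KO mouse 1) for *Gfra3*. The cause was not tested. At a 2-fold change and an FDR of 0.5, 1925 genes passed in place of 0.

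In the virus comparison, 7 genes were called, against 849 at a 2-fold change and an FDR of 0.5, 602 with DESeq2, 76 with RLE scaling, 144 without a filter and 2 with a replicate block. Leaving out single mice gave 0 to 352 calls, with 352 without WT + AAV-GFP mouse 1 and 211 without KO + AAV-GFP mouse 1. It moved the fold change from -0.57 to 0.23 for *Cd109*, from -0.060 to 0.073 for *Map1b* and from -0.012 to 0.15 for *Zbed5*. No alternative called a member at an FDR of 0.05. Between KO and WT in the AAV cohort, no fold change of a member turned in sign. The genes called there, 10 under AAV-GFP and 9 under AAV-PRDM16, were 238 and 626 with DESeq2, and 0 to 8 and 0 to 15 when single mice were left out, with 0 without KO + AAV-GFP mouse 1 or 2 and without WT + AAV-PRDM16 mouse 1 or 2. Replicate numbers did not pair the mice: same-numbered libraries deviated together with r from -0.29 to 0.11 in untreated mice and from -0.09 to 0.15 in the AAV cohort. Depth limited *Drd1*, with at most 67 reads in a library, and *Cd109* in WT.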
